A study of Homo sapiens with 8 samples.

Results

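The genes described here are 9 receptor tyrosine kinases that can carry growth signals when the fibroblast growth factor receptors (FGFRs) are blocked, EGFR, ERBB2, ERBB3, ERBB4, MET, MST1R, IGF1R, INSR and AXL, together with ERRFI1, the feedback inhibitor of EGFR and its relatives. The 10 genes were chosen by name, with earlier results of these data known. All 10 were found among the 63241 genes of the NCI-H716 tables. Among the 28043 genes used of the HCT116 table, which covers chromosomes 1 to 8 and the start of the next, 5 were found, EGFR, ERBB4, MET, MST1R and ERRFI1, and the other receptors were not analysed here in that line.

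Bulk RNA was sequenced from HCT116 and NCI-H716, both established lines from human colorectal carcinomas, with 2 control and 2 Z325-treated libraries of each line. Z325 is the study's name for ZINC000101867325, a small molecule picked by docking against the FGFR kinase domains, and the treated libraries carry the label Test. About 100 cells went into each reaction, and full-length cDNA was amplified before the library was made. The labels give neither the dose nor the time of treatment for RNA, no vehicle for the controls, and no culture or batch for a library. The study calls its replicates biological duplicates, so the p-values rest on the spread within pairs of such libraries. In edgeR the spread of each gene is moderated by that of the other genes. Each model is a single line, and NCI-H716 is known for its amplified FGFR2 gene.

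Receptor tyrosine kinases pair up when a ligand binds outside the cell, phosphorylate each other inside it and recruit adaptors that feed the MAPK and PI3K pathways. EGFR, ERBB2, ERBB3 and ERBB4 form a family, MET and MST1R answer hepatocyte growth factor and its relative, IGF1R and INSR answer insulin-like growth factors and insulin, and AXL answers GAS6. Because these receptors share adaptors with the FGFRs, a rise of a receptor or of its ligand is a known route by which colorectal tumour cells tolerate a kinase inhibitor.

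Depth ran from 13183792 to 13396225 counts in 3 HCT116 libraries and was 3434620 in replicate 2 of the Z325-treated cells, and from 10210243 to 19738848 expected counts in NCI-H716. EPCAM, an epithelial surface marker, stood at 608 to 679 FPKM (fragments scaled by gene length and library depth) in HCT116 and at 30.0 to 40.1 FPKM in NCI-H716. These ranges are on unlike scales and are not compared between the lines. The HCT116 values were scaled to the listed genes only, and the NCI-H716 values are as deposited, over all genes. The epithelial list summed to 6996 to 7578 FPKM in NCI-H716, most of it TFF3 (6495 to 6997 FPKM), with KRT8 and KRT18 at 202 to 281 FPKM and CDH1 and KRT20 at most 0.15 and 0.3 FPKM. In the same line the leukocyte and endothelial lists summed to at most 6.14 and 0.3 FPKM. The summed neuroendocrine list was 301 and 357 FPKM in controls and 389 and 485 FPKM after Z325. Most of that sum was CHGB, at 203 and 242 FPKM in controls and 265 and 355 FPKM after Z325. SCG2, SCG5 and INSM1 were also above their controls. CHGA and SYP overlapped (SYP at 6.97 and 11.6 against 7.59 and 6.38 FPKM), and NEUROD1 was near 0. The fibroblast list summed to 272 to 340 FPKM in that line, nearly all of it LUM and COL3A1, with COL1A1 at most 0.13 FPKM and THY1 at 0. In the HCT116 table the colorectal markers VIL1 and CDX1 were at or near 0, and the listed fibroblast and leukocyte markers summed to at most 0.258 and 0.102 FPKM.

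None of the receptors passed the test after Z325 in either line, and the member that came nearest was ERRFI1 in NCI-H716. The tests were edgeR's quasi-likelihood tests over all genes of a line, with an adjusted p under 0.05 as the threshold. In HCT116, 4 members had enough counts to be tested and 0 passed, against 5.78% of the 6491 genes tested. Of these 4, 1 had an unadjusted p under 0.05, against 23.9% of all genes, and DESeq2 also called 0. In NCI-H716, 8 members were tested and 0 passed, against 0.502% of 14142 genes, while 1 had an unadjusted p under 0.05, against 16.9% of all genes, and DESeq2 called that 1. The median log2 fold change was 0.05 over the 4 members in HCT116 and 0.20 over the 8 in NCI-H716, beside -0.03 and -0.01 over all genes tested. In the test of the difference between the lines, read for the 3 members that could be tested in both, EGFR, MET and ERRFI1, 0 passed in edgeR or DESeq2 and 1 had an unadjusted p under 0.05, against 0.0654% (0.0523% higher and 0.0131% lower in NCI-H716) and 14.3% of 7642 genes.

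**Figure D1:**
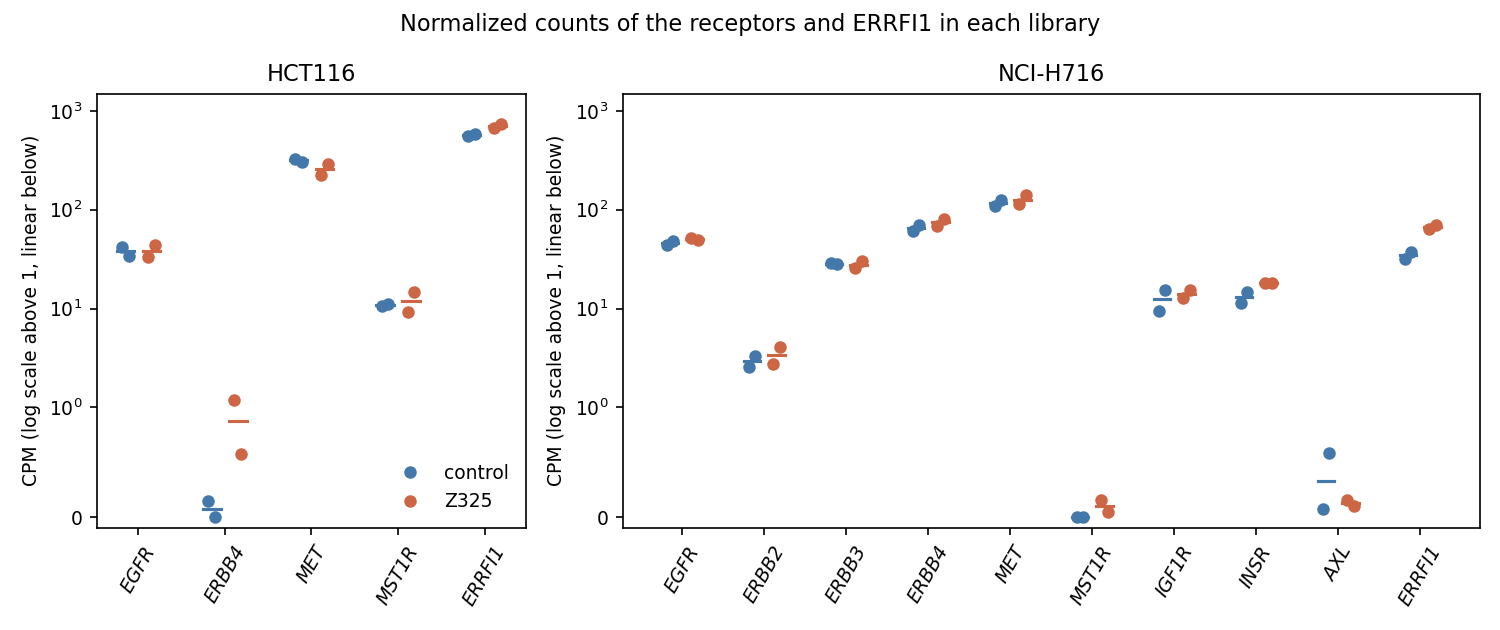
CPM (counts scaled to a common library total with TMM factors, log axis above 1 and linear below) of each member in every library, with HCT116 left and NCI-H716 right. Points are libraries, short lines are the means of 2 libraries, blue is control and orange Z325. ERRFI1 is higher in both treated libraries in both lines, at 32.0 and 36.9 against 63.2 and 69.4 CPM in NCI-H716. That order held for 24.8% of the genes tested in HCT116 and 24.3% in NCI-H716. Of the other tested members, MET (lower) in HCT116 and EGFR and INSR (higher) in NCI-H716 also had groups without overlap.

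ERRFI1 (ENSG00000116285, GRCh38 chr1:8004404-8026309, minus strand) encodes MIG6, a cytosolic protein that binds the active kinase domain of EGFR and its relatives, blocks it and sends the receptor to degradation, and whose own transcription follows receptor and MAPK activity. In NCI-H716 its level was 32.0 and 36.9 CPM in the control libraries and 63.2 and 69.4 CPM in the Z325 libraries. Both treated libraries lay above both controls, with no overlap, as for 24.3% of the genes tested in NCI-H716. The log2 fold change was 0.94 (SE 0.18, 95% interval 0.54 to 1.35, n = 2 against 2), a 1.92-fold difference, at the 96.2 percentile of all genes tested. The unadjusted p was 0.000378 and the edgeR adjusted p 0.0615, which missed the threshold. ERRFI1 passed under 6 of 16 alternatives, among them DESeq2 (adjusted p = 0.00232) and edgeR without the filter on low counts (adjusted p = 0.00104). The fits without Z325 replicate 1 or 2 were also among the 6, but each leaves 1 treated library. ERRFI1 did not pass with other scaling, a stricter filter, thinning or limma, nor without a control library. Leaving out 1 library gave 0.85 (without control replicate 1) to 1.06 (without control replicate 2) on the log2 scale. In bulk RNA, a change in the number of cells with a transcript and a change in RNA per cell cannot be told apart.

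In HCT116 ERRFI1 was at 558 and 589 CPM in the controls and 678 and 738 CPM after Z325. The groups again did not overlap, with both treated libraries above both controls, which held for 24.8% of the genes tested in that line. Its log2 fold change was 0.30 (SE 0.12, 95% interval 0.02 to 0.59), a 1.23-fold difference with an unadjusted p of 0.0388 and an edgeR adjusted p of 0.187. Without the shallow Z325 replicate 2 it was 0.27. The Z325 effect on ERRFI1 was 0.63 larger in NCI-H716 than in HCT116 on the log2 scale (SE 0.20, 95% interval 0.19 to 1.07). That difference had an unadjusted p of 0.00914 and an edgeR adjusted p of 0.213 over 7642 genes, so it did not pass. An antisense lncRNA covers 3.71% of the exon bases of ERRFI1, and the counting was not stated to use strand.

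The promoter of ERRFI1 is shown because this gene came nearest to a call. RefSeq (GRCh38.p14) places it at chr1:8026260-8026559 on the minus strand, 250 bases before and 50 after the start site. Searched on both strands, it held none of 4 motifs, the CRE letters TGACGTCA, the AP-1 letters TGANTCA, the antioxidant response core TGACNNNGC and the E-box letters TCACGTGA, so no base is in capitals. The motifs were chosen after some of these sequences had been seen.
ERRFI1: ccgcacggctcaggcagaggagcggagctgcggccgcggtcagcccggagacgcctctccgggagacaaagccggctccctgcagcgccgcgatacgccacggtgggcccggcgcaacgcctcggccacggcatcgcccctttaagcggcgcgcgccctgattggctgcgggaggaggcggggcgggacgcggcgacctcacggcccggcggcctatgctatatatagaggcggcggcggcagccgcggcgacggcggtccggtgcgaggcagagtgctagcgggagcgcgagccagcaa

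Of all 35116 promoter windows of that length, 1.85% held TGACGTCA, 7.71% TGANTCA, 13.3% TGACNNNGC and 0.980% TCACGTGA. Windows were found for 9 of the 10 members, all but ERBB3. The AP-1 letters occurred in the second EGFR window, 2 times, and 1 time in that of ERBB2, and the antioxidant response core occurred in the second AXL window. The first EGFR and AXL windows and those of ERBB4, MET, MST1R, IGF1R and INSR held none of the 4. No 2 of these matches overlapped.

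EGFR (ENSG00000146648, chr7:55019017-55211628, plus strand) is the receptor for EGF, TGFA and amphiregulin. Its level in HCT116 was 41.9 and 33.8 CPM in the controls and 32.9 and 43.5 CPM after Z325. The groups overlapped fully, each with 1 low and 1 high library. The log2 fold change was 0.00 (SE 0.25, 95% interval -0.56 to 0.57, edgeR adjusted p = 0.996). Its sign turned with the scaling: it was -0.03 with library size alone.

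In NCI-H716 EGFR stood at 43.7 and 48.4 CPM in the controls and 51.3 and 49.0 CPM after Z325. Both treated libraries lay above both controls, by less than the distance between the controls for the nearest pair. The same order held for 24.3% of the genes tested in NCI-H716. The log2 fold change was 0.12 (SE 0.18, 95% interval -0.27 to 0.52, edgeR adjusted p = 0.769). The effect differed between the lines by 0.12 (95% interval -0.52 to 0.75, edgeR adjusted p = 0.944).

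ERBB2, the family member without a ligand of its own and the preferred partner of the others, was scarce in NCI-H716, with 34 and 34 counts in the controls and 36 and 81 after Z325, or 2.57 and 3.30 against 2.75 and 4.07 CPM. The groups overlapped, and the log2 fold change of 0.23 had a 95% interval of -0.72 to 1.18, wide at this depth (edgeR adjusted p = 0.828). ERBB3, which has a weak kinase and signals to PI3K through its partners, was at 29.2 and 27.9 CPM in the controls and 25.6 and 30.1 CPM after Z325. Its groups overlapped too, and the log2 fold change was -0.03 (SE 0.20, 95% interval -0.48 to 0.41, edgeR adjusted p = 0.948). Of the exon bases of ERBB2, 5.53% are shared with MIEN1 on the other strand.

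ERBB4 (ENSG00000178568, chr2:211375717-212538841, minus strand), a neuregulin receptor, gave opposite directions on the count and the FPKM scale in NCI-H716. Its counts were 798 and 717 in the controls and 891 and 1621 after Z325, which is 60.4 and 69.5 against 68.0 and 81.5 CPM. The groups overlapped, with Z325 replicate 2 the highest, and the log2 fold change was 0.20 (SE 0.18, 95% interval -0.20 to 0.61, edgeR adjusted p = 0.606). The FPKM deposited for the same libraries were 42.5 and 32.9 in the controls and 13.7 and 24.7 after Z325. On that scale both treated libraries lay below both controls, and limma on log2(FPKM + 1) gave a log2 difference of -0.985 (unadjusted p = 0.0143, adjusted p = 0.307).

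The lengths by which RSEM divided the ERBB4 counts moved with treatment. RSEM gives each gene in each library a mean transcript length weighted by the transcripts it assigned reads to, and for ERBB4 this was 1629 and 2386 bases in the controls and 5195 and 3592 bases after Z325. Both treated libraries were above both controls, as for 15.6% of the genes tested in NCI-H716, and the ratio of the highest to the lowest length was 3.19, a ratio reached by 1.34% of them. The median ratio was 1.10 over these genes, and the other tested members had ratios of at most 2.05. The annotation gives ERBB4 8 transcripts in the tables, from 309 to 12097 bases long. Whether the cells used other ERBB4 transcripts was not tested.

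**Figure D2:**
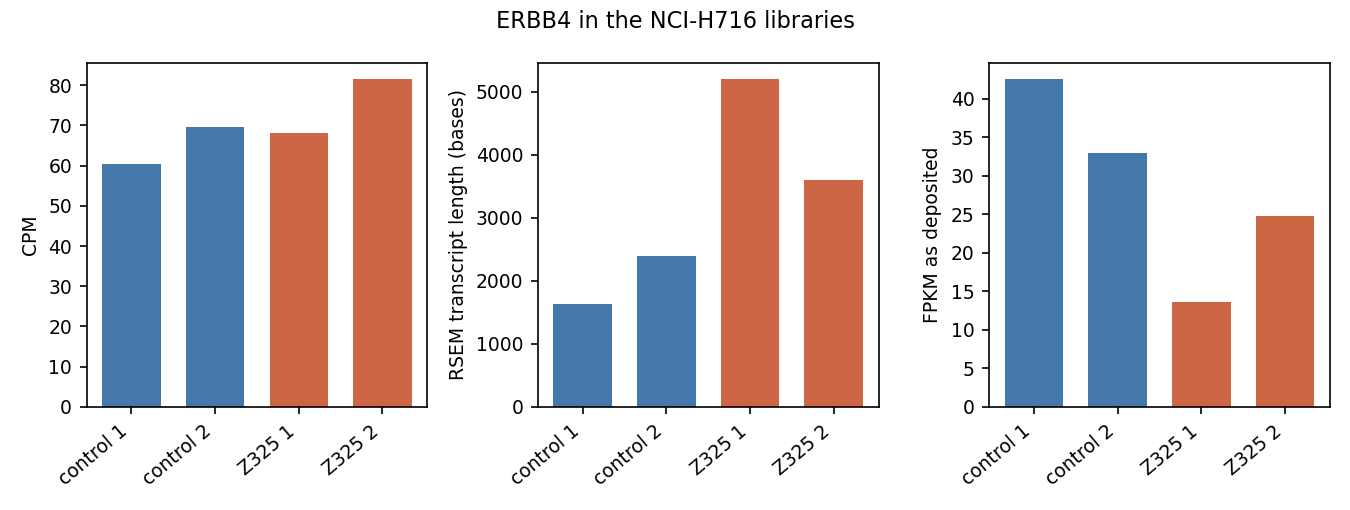
ERBB4 in the 4 NCI-H716 libraries as CPM, as the mean transcript length that RSEM used in each library (bases), and as deposited FPKM, each bar 1 library, blue control and orange Z325. CPM is flat to slightly higher after Z325, the length rises from 1629 and 2386 to 5195 and 3592 bases, and FPKM is lower, at 13.7 and 24.7.

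ERBB4 was nearly silent in HCT116, with 2 and 0 counts in the controls and 15 and 2 counts after Z325. Both groups hold a library at or under a floor of 3 counts. For that reason no fold is given, and ERBB4 was not tested in the fit of that line. The difference between the lines is not given for ERBB4 either. With all 8 libraries in 1 fit ERBB4 was called higher in HCT116 (edgeR adjusted p = 0.0197), on these few counts.

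MET (ENSG00000105976, chr7:116672196-116798377, plus strand), the hepatocyte growth factor receptor and a known bypass receptor in treated epithelial tumours, was, per base of exon, the most abundant of the 4 receptors listed in HCT116. There it read 328 and 305 CPM in the controls and 227 and 289 CPM after Z325. Both treated libraries lay below both controls, as for 29.0% of the genes tested, and Z325 replicate 1 was the lower. A log2 fold change of -0.30 (SE 0.15, 95% interval -0.65 to 0.05) was found, with an unadjusted p of 0.0819 and an edgeR adjusted p of 0.274. It was -0.46 without Z325 replicate 2 and -0.15 without Z325 replicate 1, and passed in neither.

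MET in NCI-H716 was at 108 and 126 CPM in the controls and 113 and 139 CPM after Z325. The groups overlapped, and the log2 fold change was 0.11 (SE 0.18, 95% interval -0.28 to 0.50, edgeR adjusted p = 0.795). The effects in the lines differed by 0.40 (95% interval -0.12 to 0.93), with an edgeR adjusted p of 0.465.

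MST1R, the receptor RON of macrophage-stimulating protein, was at 10.7 and 11.04 CPM in HCT116 controls and 9.15 and 14.6 CPM after Z325. The treated libraries lay on either side of the controls, and the log2 fold change was 0.10 (SE 0.36, 95% interval -0.72 to 0.91, edgeR adjusted p = 0.911). In NCI-H716 it was at or under the floor, with 0 and 0 counts in the controls and 2 and 1 after Z325, and was not tested. AXL, a receptor often linked to drug tolerance in mesenchymal-like tumour cells, was as scarce in NCI-H716, with 1 and 6 counts in the controls and 2 and 2 after Z325. It was not tested either.

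Both insulin-type receptors were read in NCI-H716. INSR, the insulin receptor (chr19:7112255-7294414, minus strand), was at 11.3 and 14.7 CPM in the controls and 18.0 and 18.2 CPM after Z325, both treated libraries above both controls. Its log2 fold change was 0.48 (SE 0.24, 95% interval -0.04 to 1.01, unadjusted p = 0.0689, edgeR adjusted p = 0.330). IGF1R, the receptor of insulin-like growth factors, was at 9.54 and 15.3 CPM in the controls and 12.7 and 15.5 CPM after Z325. Control replicate 1 was the lowest library and the groups overlapped, with a log2 fold change of 0.19 (SE 0.28, 95% interval -0.44 to 0.81, edgeR adjusted p = 0.778). EGFR, INSR and ERRFI1 were the 3 of 8 tested members with both treated libraries above both controls in NCI-H716, against 24.3% of all genes tested. For comparison, FGFR2, a receptor that Z325 was docked against, was at 228 and 217 CPM in the controls and 176 and 196 CPM after Z325, with a log2 fold change of -0.26 (SE 0.16, edgeR adjusted p = 0.431).

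**Figure D3:**
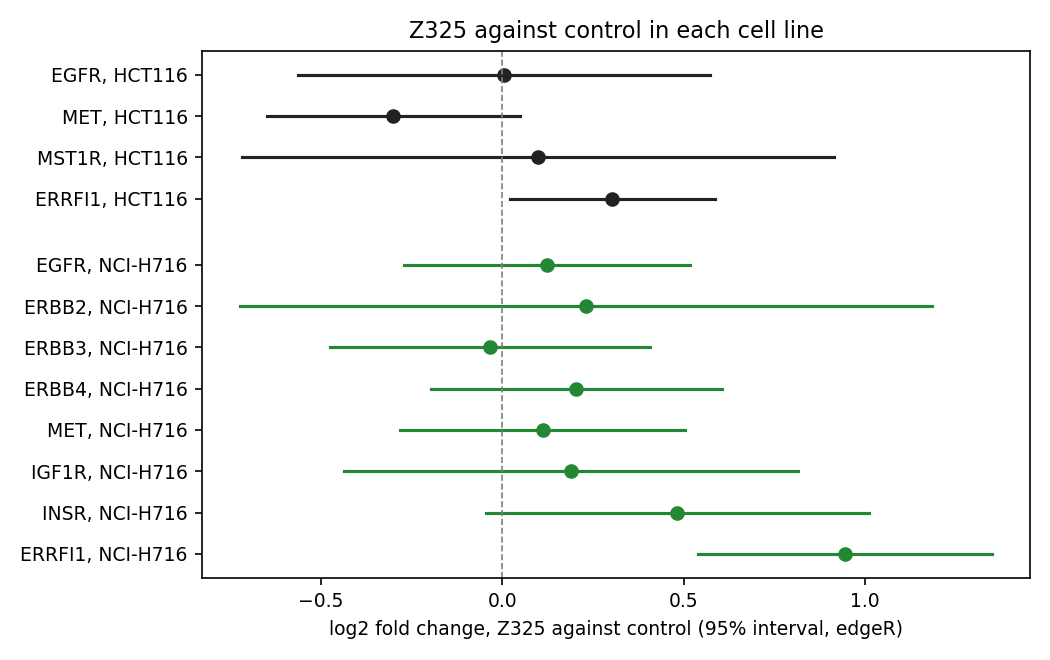
Log2 fold change of Z325 against control for the members that could be tested, points with 95% intervals from edgeR, black HCT116 and green NCI-H716. The intervals of ERRFI1 lie above 0 in both lines (0.02 to 0.59 and 0.54 to 1.35), and those of all receptors cross 0.

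Levels were compared between receptors only per base of transcript. As deposited FPKM, ERBB4 led in the NCI-H716 controls (42.5 and 32.9), followed by MET (17.4 and 21.3), ERBB3 (12.9 and 12.2) and EGFR (6.21 and 6.58). Below these came INSR (1.27 and 1.71), ERBB2 (1.34 and 0.81) and IGF1R (0.78 and 1.29), whose ranges overlap, and AXL and MST1R at 0 to 0.13. ERBB4 therefore took 47.2% of the summed FPKM of the 9 receptors in the controls and 29.1% after Z325, and MET 24.4% and 33.6%. ERBB3 took 15.8% and 18.1% and EGFR 8.04% and 11.6%.

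With counts divided by the length of the longest transcript in every library, which holds the length fixed, MET led. MET then took 49.1% of the summed level in the controls and 48.4% after Z325, ERBB4 15.5% and 16.3%, EGFR 13.4% and 13.5%, and ERBB3 13.2% and 11.7%. ERBB4, EGFR and ERBB3 were close neighbours on that scale, with library ranges of 15.5% to 16.5%, 12.1% to 14.8% and 11.7% to 14.4%. The order of ERBB4 and MET turned with the length used.

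**Figure D4:**
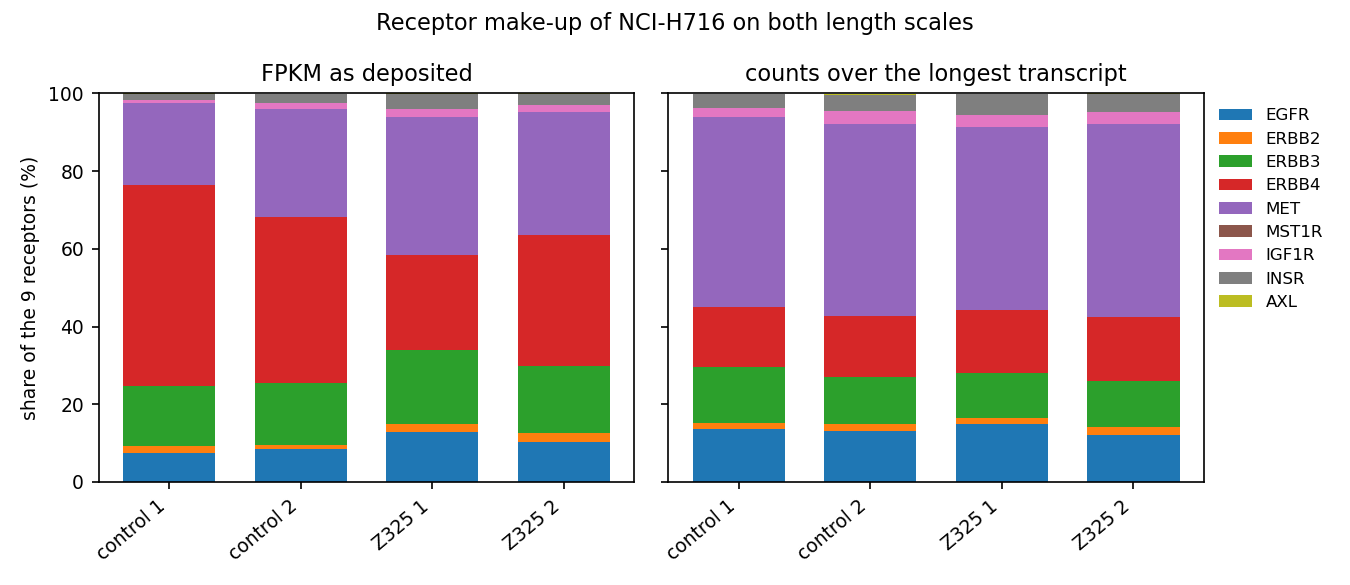
Share of each of the 9 receptors in their summed level (percent) in every NCI-H716 library, from deposited FPKM at left and from counts over the length of the longest transcript at right. ERBB4 goes from 51.6% and 42.8% to 24.5% and 33.8% on the left and stays between 15.5% and 16.5% on the right.

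Between the lines, levels were set side by side as FPKM over the same genes and the same exon lengths, without a test because the tables were made separately. MET ranges overlapped, at 30.0 to 47.1 FPKM in HCT116 and 34.8 to 43.4 FPKM in NCI-H716. EGFR read 1.97 to 2.78 FPKM in HCT116 and 6.36 to 7.27 FPKM in NCI-H716. ERBB4 was at most 0.086 FPKM in HCT116 and 10.8 to 14.1 FPKM in NCI-H716, and MST1R was 1.66 to 2.83 FPKM in HCT116 and at most 0.0656 FPKM in NCI-H716. ERRFI1 was at 138 to 179 FPKM in HCT116 and 17.8 to 37.4 FPKM in NCI-H716.

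Of the ligand genes of these receptors, more could be tested in HCT116 than in NCI-H716. In HCT116, 12 of 18 ligand genes were listed and 8 tested, and 2 of them rose and 0 fell, against 2.83% and 2.94% of all genes tested. The median log2 fold change of the 8 was 0.71, beside -0.03 over all genes. Of the 8, 5 had both treated libraries above both controls, against 24.8% of all genes tested. Among the 5 was EGF on few counts, 16 and 6 in the controls and 22 and 8 after Z325. NRG1, a neuregulin gene, went the other way, at 5.50 and 9.28 CPM in the controls and 4.69 and 4.58 CPM after Z325. Its log2 fold change was -0.67 (edgeR adjusted p = 0.399), and 29.0% of all genes tested had both treated libraries below both controls.

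AREG, the gene of amphiregulin, a ligand of EGFR abundant in colorectal tumours, was at 195 and 194 CPM in HCT116 controls and 372 and 371 CPM after Z325. The pairs were tight and far apart, and AREG rose by 0.94 on the log2 scale (SE 0.13, 95% interval 0.65 to 1.22, edgeR adjusted p = 0.00727), a 1.91-fold difference. Leaving out 1 library gave 0.92 (without Z325 replicate 1) to 0.96 (without the shallow Z325 replicate 2). AREG did not pass in the fits without control replicate 1 or 2. It also did not pass in limma with a pseudocount of 0.1, or over genes with a mean FPKM of at least 1. The AREG promoter is shown because it is the 1 window searched that held TGACGTCA, in capitals, 65 bases before the start site (RefSeq GRCh38.p14, chr4:74444886-74445185, plus strand). As said above, the motifs were chosen after some of the sequences had been seen.
AREG: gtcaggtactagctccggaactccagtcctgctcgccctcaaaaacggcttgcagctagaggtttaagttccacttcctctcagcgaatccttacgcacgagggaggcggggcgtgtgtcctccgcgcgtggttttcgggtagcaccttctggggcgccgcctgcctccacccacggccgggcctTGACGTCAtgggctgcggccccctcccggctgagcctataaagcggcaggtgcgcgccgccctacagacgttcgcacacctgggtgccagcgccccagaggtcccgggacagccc

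BTC, betacellulin, a ligand of EGFR and ERBB4, was at 9.40 and 10.4 CPM in HCT116 controls and 24.2 and 25.8 CPM after Z325. It rose by 1.33 on the log2 scale (SE 0.28, 95% interval 0.68 to 1.98, edgeR adjusted p = 0.0357), or 2.52-fold, and the groups were well apart. BTC did not pass in limma or with all 8 libraries in 1 fit, nor without control replicate 1 or 2. Its log2 fold change was 1.25 without control replicate 1 and 1.40 without control replicate 2. AREG and BTC lie in the same cluster of ligand genes on chromosome 4, with EREG, epiregulin, which read 492 and 400 CPM in the controls and 326 and 415 CPM after Z325. Its groups overlapped and its log2 fold change was -0.27 (95% interval -0.65 to 0.11, edgeR adjusted p = 0.365).

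TGFA, transforming growth factor alpha, read 30.5 and 35.1 CPM in the controls and 37.5 and 63.0 CPM after Z325 in HCT116. HBEGF, the heparin-binding ligand, read 7.09 and 9.66 against 18.5 and 10.6 CPM. In both genes the treated libraries lay above the controls, with 1 treated library close to them, and neither passed (log2 fold changes 0.60 and 0.83, edgeR adjusted p = 0.237 and 0.233). Leaving out 1 library moved TGFA from 0.22 (without Z325 replicate 2) to 0.93 (without Z325 replicate 1). It moved HBEGF from 0.33 (without Z325 replicate 1) to 1.17 (without Z325 replicate 2). EGF, NRG1, TGFA, HBEGF and EREG were named after their values were seen.

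In NCI-H716, 2 of the 18 ligand genes had enough counts to be tested and 0 passed in edgeR or DESeq2 or had an unadjusted p under 0.05. AREG and BTC had 0 counts in all 4 libraries, which allows up to 3 counts per library. NRG4, a ligand of ERBB4, was at 2.73 and 1.84 CPM in the controls and 1.45 and 1.46 CPM after Z325, with a log2 fold change of -0.66 (SE 0.53, edgeR adjusted p = 0.563), and 38.2% of its exon bases are shared with FBXO22. PROS1, protein S, a ligand of the AXL family, was at 31.5 and 38.0 CPM against 37.4 and 43.7 CPM, and its groups overlapped (log2 fold change 0.22, edgeR adjusted p = 0.60).

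ADAM17, the protease that cuts amphiregulin and TGFA from the cell surface, was the 1 protease of its list that could be tested in HCT116, where it rose. Its level there was 27.6 and 30.8 CPM in the controls and 75.2 and 69.9 CPM after Z325, more than the spread of either pair. It rose by 1.31 on the log2 scale (SE 0.20, 95% interval 0.85 to 1.78, edgeR adjusted p = 0.0130), a 2.49-fold difference. ADAM17 did not pass in limma, nor without control replicate 1 or 2. Leaving out 1 library gave 1.23 (without control replicate 1) to 1.39 (without the shallow Z325 replicate 2).

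In NCI-H716 ADAM17 read 7.72 and 5.14 CPM in the controls and 15.5 and 11.6 CPM after Z325, also without overlap. Both treated libraries above both controls held for 24.3% of the genes tested in that line. The log2 fold change of 1.06 (SE 0.30, 95% interval 0.39 to 1.72) had an unadjusted p of 0.00517 and an edgeR adjusted p of 0.155. Leaving out 1 library gave 0.82 (without control replicate 2) to 1.40 (without control replicate 1). The difference between the lines was -0.28 (95% interval -1.11 to 0.56, edgeR adjusted p = 0.805). Of its exon bases, 10.3% are shared with IAH1 on the other strand. In NCI-H716, 6 of the 10 genes of this list were tested and 0 passed in edgeR or DESeq2, against 0.502% of all genes, and 3 had an unadjusted p under 0.05, against 16.9%. Among these was SPINT2, an inhibitor of the protease that activates hepatocyte growth factor, at 8.25 and 3.20 against 3.13 and 2.16 CPM (log2 fold change -1.14, edgeR adjusted p = 0.276).

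**Figure D5:**
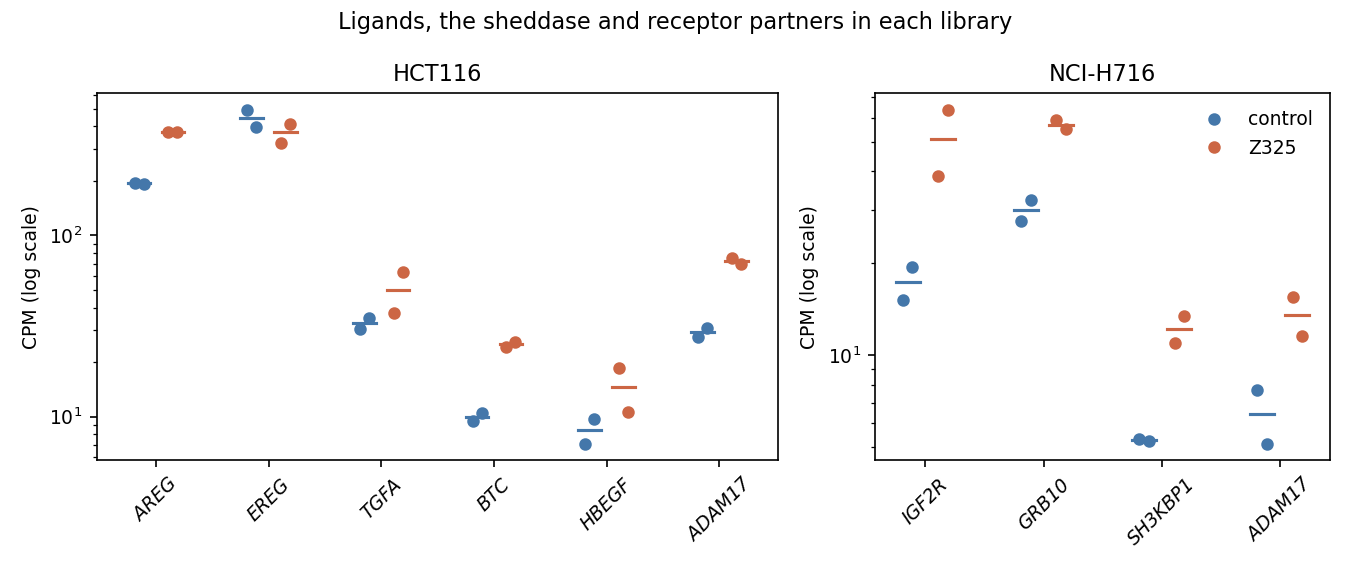
CPM (log axis) of EGFR ligands and ADAM17 in HCT116 and of IGF2R, GRB10, SH3KBP1 and ADAM17 in NCI-H716, points libraries, short lines means of 2, blue control and orange Z325. AREG, BTC and ADAM17 separate in HCT116, EREG does not, and IGF2R goes from 15.1 and 19.5 to 38.7 and 63.4 CPM in NCI-H716.

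IGF2R, the mannose 6-phosphate receptor that carries lysosomal enzymes and clears IGF2 from the cell surface without a kinase of its own, was the 1 pathway gene called in NCI-H716, higher, as were 0.403% of all genes tested (0.0990% were called lower). It read 15.1 and 19.5 CPM in the controls and 38.7 and 63.4 CPM after Z325, so the treated pair was spread but above both controls. IGF2R rose by 1.57 on the log2 scale (SE 0.26, 95% interval 0.98 to 2.15, edgeR adjusted p = 0.0297), or 2.96-fold. Without control replicate 1 the edgeR adjusted p was 0.152, and limma on log2(FPKM + 1) gave 1.05 (adjusted p = 0.277).

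IGF2R in HCT116 was at 10.8 and 6.67 CPM in the controls and 10.7 and 7.45 CPM after Z325, with full overlap and a log2 fold change of 0.08 (95% interval -0.83 to 0.98, edgeR adjusted p = 0.940). The effects in the lines differed by 1.46 (95% interval 0.43 to 2.48, unadjusted p = 0.00946, edgeR adjusted p = 0.213), which did not pass. Its promoter is shown because it held TCACGTGA at 3 places, in capitals, 133, 75 and 29 bases before the start site, and was the 1 window searched with that motif (RefSeq GRCh38.p14, chr6:159968832-159969131, plus strand). The windows of BTC and ADAM17 held none of the 4 motifs, which were chosen after some of the sequences had been seen.
IGF2R: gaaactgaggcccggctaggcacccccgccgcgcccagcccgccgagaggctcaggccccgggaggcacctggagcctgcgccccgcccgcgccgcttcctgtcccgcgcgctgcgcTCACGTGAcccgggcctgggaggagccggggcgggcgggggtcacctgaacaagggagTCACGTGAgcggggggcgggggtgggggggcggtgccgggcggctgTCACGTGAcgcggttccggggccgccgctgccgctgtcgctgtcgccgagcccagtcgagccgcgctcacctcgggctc

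No other gene of the IGF-binding list passed in either line in edgeR or DESeq2. IGFBP2, a secreted binding protein of insulin-like growth factors, was at 19.9 and 31.4 CPM in HCT116 controls and 13.1 and 16.0 CPM after Z325, and at 37.3 and 25.3 against 22.8 and 7.69 CPM in NCI-H716. In both lines the treated libraries lay below the controls, as for 29.0% of the genes tested in HCT116 and 25.1% in NCI-H716. Neither difference passed (log2 fold changes -0.83 and -1.06, edgeR adjusted p = 0.164 and 0.244). In HCT116, leaving out 1 library moved IGFBP2 from -1.12 (without control replicate 1) to -0.46 (without control replicate 2). In NCI-H716 it moved from -2.02 (without Z325 replicate 1) to -0.44 (without Z325 replicate 2). IGFBP6 in NCI-H716 was at 41.9 and 30.2 against 27.0 and 19.4 CPM (-0.64, edgeR adjusted p = 0.232). For IGFBP6, leaving out 1 library gave -0.89 (without Z325 replicate 1) to -0.38 (without control replicate 1). IGF2BP3, an mRNA-binding protein rather than an IGF-binding one, was at 45.6 and 35.4 against 32.7 and 23.8 CPM in HCT116 (-0.50, edgeR adjusted p = 0.287).

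Of the adaptors and scaffolds, which link active receptors to RAS and PI3K, 9 were tested in HCT116 and 17 in NCI-H716, and edgeR called 0 in either, against 5.78% and 0.502% of all genes. DESeq2 called GRB10 in NCI-H716 (adjusted p = 0.00466), and 5 had an unadjusted p under 0.05 there (16.9% of all genes) and 1 in HCT116 (23.9% of all genes). The median log2 fold change of the 17 was 0.19, beside -0.01 over all genes. GRB10, an adaptor that restrains INSR and IGF1R, was at 27.4 and 32.2 CPM in the controls and 58.8 and 55.0 CPM after Z325, clearly apart (log2 fold change 0.93, SE 0.19, unadjusted p = 0.000489, edgeR adjusted p = 0.0665). Both treated libraries above both controls held for 24.3% of the genes tested in NCI-H716. SOS2, an exchange factor that loads RAS, was at 10.2 and 11.3 against 16.0 and 25.2 CPM (0.94, edgeR adjusted p = 0.158). Leaving out 1 library moved SOS2 from 0.59 (without Z325 replicate 2) to 1.24 (without Z325 replicate 1). It moved GRB10 from 0.83 (without control replicate 1) to 1.06 (without control replicate 2).

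In HCT116 the adaptor GRB14, another brake on INSR, was at 14.2 and 13.5 CPM in the controls and 22.8 and 21.5 CPM after Z325 (log2 fold change 0.68, edgeR adjusted p = 0.182). SOS1 was at 32.2 and 28.2 against 20.6 and 22.6 CPM (-0.49, edgeR adjusted p = 0.278). Both pairs were apart, on opposite sides, as for 24.8% (treated above) and 29.0% (treated below) of all genes tested in HCT116.

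Among the 25 genes that inhibit receptors or turn them over, 6 were tested in HCT116 and 22 in NCI-H716, 0 passed in edgeR, against 5.78% and 0.502% of all genes, and 3 in each line had an unadjusted p under 0.05, against 23.9% and 16.9%. DESeq2 called EPS15 in HCT116 (adjusted p = 0.0468) and 0 in NCI-H716. EPS15, an endocytic adaptor that takes up EGFR, was above its controls in both lines, at 51.7 and 42.2 against 64.1 and 86.2 CPM in HCT116 and 23.1 and 23.1 against 33.4 and 37.7 CPM in NCI-H716 (log2 fold changes 0.67 and 0.62, edgeR adjusted p = 0.118 and 0.176). Both treated libraries above both controls held for 24.8% of all genes tested in HCT116 and 24.3% in NCI-H716. For EPS15 in HCT116, leaving out 1 library gave 0.47 (without Z325 replicate 2) to 0.86 (without Z325 replicate 1). SH3KBP1, the partner of CBL in receptor uptake, was at 5.30 and 5.24 against 11 and 13.5 CPM in NCI-H716 (1.22, edgeR adjusted p = 0.101). Its log2 fold change was 1.07 without Z325 replicate 2 and 1.36 without Z325 replicate 1. SOCS5, a suppressor of EGFR signalling, was at 57.2 and 42.3 against 25.9 and 35.5 CPM in HCT116, below its controls (-0.71, edgeR adjusted p = 0.148). Leaving out 1 library moved it from -0.92 (without Z325 replicate 2) to -0.48 (without control replicate 1). In HCT116, 29.0% of the genes tested had both treated libraries below both controls.

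Of the other receptor tyrosine kinases outside the FGFR and Eph families, most had too few counts to be tested. In HCT116 5 of 18 listed genes were tested, and in NCI-H716 11 of 31. In edgeR or DESeq2 0 passed, against 5.78% and 0.502% of all genes. In each line 1 had an edgeR unadjusted p under 0.05, against 23.9% and 16.9% of all genes. PTK7, a pseudokinase of the Wnt pathway, was at 5.50 and 7.06 against 2.82 and 3.44 CPM in HCT116, and the lemur kinase LMTK2 at 13.6 and 11.04 against 5.16 and 8.59 CPM. Both lay below their controls, as did 29.0% of all genes tested in HCT116 (log2 fold changes -1.03 and -0.89, edgeR adjusted p = 0.213 and 0.209). Leaving out 1 library moved LMTK2 from -1.23 (without Z325 replicate 2) to -0.54 (without Z325 replicate 1). In NCI-H716 ROR1, a Wnt receptor, was at 31.1 and 26.9 against 21.3 and 18.5 CPM and TYRO3, the relative of AXL, at 6.59 and 7.86 against 10.7 and 10.002 CPM (-0.55 and 0.52, edgeR adjusted p = 0.238 and 0.355). The groups did not overlap for either, as for 25.1% (treated below) and 24.3% (treated above) of all genes tested in NCI-H716.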

How the data were processed

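The HCT116 table that the authors deposited holds raw counts of reads per gene with exon lengths. Of it, 28043 genes on chromosomes 1 to 8 and the start of the next were used after 4 broken lines were left out. For NCI-H716 the authors deposited RSEM output per library, which holds expected counts, TPM and FPKM for 63241 genes, 62666 paired with a symbol through GENCODE v44. The study's methods name TrimGalore, STAR, RSEM and GRCh38, while the submitters' processing notes name Bowtie2 2.5.0, featureCounts and hg38, with no roles. HCT116 FPKM and TPM were computed here from the counts and lengths, so they cover the listed genes only.

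Expected counts, rounded to integers, and raw counts were fitted line by line in edgeR 4.0.16 (R 4.3.3), with TMM scaling, the filter filterByExpr, the quasi-likelihood test and no replicate block. Benjamini-Hochberg adjustment ran over all genes tested. The study's own test on FPKM was replaced because counts were at hand. The difference between the lines was the interaction over all 8 libraries, given only for genes tested in both lines. With 2 against 2 libraries an exact permutation test cannot go below p = 0.333, so none is given. Intervals are 95% and cover the fitted spread, and the floor of 3 counts covers counting error only.

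Alternatives were DESeq2 1.42.0, other scaling and filters, limma 3.58.1 on log2 FPKM or TPM (pseudocounts 1 and 0.1), thinning to the shallowest library, a replicate block, 1 fit of all 8 libraries and leaving out each library. A fit of a line without 1 library leaves 1 library in its group, so its p-values rest on the spread within the other pair, moderated over genes. Dividing counts by the longest transcript was added after the data were seen. The steps were tested on simulated data with log2 changes of 2 up or down, and smaller changes were not tried. Named are all members, genes of 6 pathway lists that passed in a line, otherwise the 2 of smallest p in a list and line, and FGFR2. The ligand genes EGF, NRG1, TGFA, HBEGF and EREG were added after their values were seen. The members and lists were chosen with earlier results of these data known. Promoters came from RefSeq (GRCh38.p14). The figures were drawn with Python 3.11.15 and matplotlib 3.10.9.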

Additional observations from a re-analysis of the deposited data

Results flagged for a closer look

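ERRFI1 was singled out because its Z325 effect was 0.63 higher in NCI-H716 than in HCT116 with an unadjusted p of 0.00914 (edgeR, adjusted p = 0.213), the fold changes being above 0 in both lines. An unadjusted p under 0.05 was reached by 14.3% of the 7642 genes of that test, and 0.0654% passed after adjustment. Groups of 2 libraries are too small to look for a library far from the others.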

How the results depend on the processing

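In all, 77 results were recomputed. The count of genes called was 375 in HCT116, 71 in NCI-H716 and 5 for the difference between the lines. It became 709, 316 and 104 with DESeq2 and 683, 777 and 106 without the filter on low counts. With at least 10 counts in every library it was 615 in HCT116 and 26 for the difference, with thinning 23 for the difference, and with all 8 libraries in 1 fit 19 in NCI-H716. In HCT116 that fit of all 8 also called ERBB4 (edgeR adjusted p = 0.0197), at 2 and 0 against 15 and 2 counts. limma called 47, 37, 46 and 35 genes in HCT116 and 6, 6, 6 and 8 in NCI-H716, for FPKM with a pseudocount of 1 and 0.1, TPM, and FPKM with a mean of at least 1. Leaving out 1 library gave 23 (without control replicate 2) to 1076 (without Z325 replicate 2) calls in HCT116, 38 (without control replicate 1) to 1386 (without Z325 replicate 1) in NCI-H716 and 0 to 61 for the difference.

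The replicate numbers were not shown to pair the libraries: the differences of same-numbered libraries correlated at -0.0217 over genes in HCT116 and 0.286 in NCI-H716, with only 2 pairs in each. With a replicate block the counts were 381, 2397 and 12, and ERRFI1 passed in NCI-H716 (edgeR adjusted p = 2.40e-08). In that line the block also brought ADAM17, GRB10, SOS1, SOS2, IRS1, IRS2, SH3KBP1 and EPS15 (higher) and GRB7, SPRY2, IGFBP2, IGFBP6 and ROR1 (lower) past the threshold, with edgeR adjusted p from 2.48e-08 (IGFBP2) to 0.0421 (SOS1).

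The fold change of EGFR in HCT116 turned to -0.0345 with library size alone, -0.0547 without the filter, -0.017 with at least 10 counts, and -0.0199, -0.0294, -0.0659 and -0.0199 in limma. IGF2R in HCT116 turned to -0.0557 with thinning and -0.017 in limma on TPM. ERBB4 in NCI-H716 turned to -0.985, -1.02, -1.04 and -0.985 in limma, which divides by the RSEM lengths given above. Leaving out 1 library turned EGFR (-0.18 to 0.18), MST1R (-0.22 to 0.41) and IGF2R (-0.25 to 0.46) in HCT116, ERBB2 (-0.0751 to 0.485), ERBB3 (-0.143 to 0.0863), MET (-0.0317 to 0.261) and IGF1R (-0.11 to 0.57) in NCI-H716, and the difference between the lines of EGFR (-0.0538 to 0.317) and ADAM17 (-0.52 to 0.12). The cause was not tested for the others. ERRFI1 kept its direction under all alternatives run in both lines, from 0.82 to 1.06 in NCI-H716 and from 0.22 to 0.35 in HCT116, and passed under 6 of 16 in the former and 0 in the latter. With counts over the longest transcript, the shares of the receptors in controls and after Z325 were 13.4% and 13.5% for EGFR, 13.2% and 11.7% for ERBB3, 15.5% and 16.3% for ERBB4, and 49.1% and 48.4% for MET.

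With 2 libraries a group, the 95% intervals of most receptors cross 0 and reach past 0.4 on the log2 scale, so smaller changes were not detectable. HCT116 Z325 replicate 2 held the fewest counts, AXL and MST1R were near the floor in NCI-H716, and ERBB2, ERBB3, IGF1R, INSR and AXL were not analysed here in HCT116.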
